A study of Mus musculus with 2 samples.

Results

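Angpt1, Angpt2, Tek and Tie1 are the 4 genes described here, out of 22399 gene features counted in single cells of the embryonic mouse heart at stage E11.5. They were taken by name, as the genes of angiopoietins 1 and 2 and of both Tie receptors. The control hearts had the genotype Hand2fx/+ R26RmTmG/wt, with 1 conditional Hand2 allele and no Cre. The H2CKO hearts had the genotype Nfatc1Cre/wt Hand2fx/fx R26RmTmG/wt, in which Nfatc1Cre, active in the endocardium, removes Hand2, a transcription factor gene, from both alleles. Both genotypes carried the R26RmTmG reporter, which gives membrane Tomato before and membrane GFP after Cre has acted. Whole hearts were dissociated and made into 1 10x Genomics 3′ library per genotype, and the labels do not give the number or the sex of the pooled embryos.

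Tek (also called Tie2) is the receptor tyrosine kinase of the angiopoietins, and Tie1 is a related receptor that is found in complex with Tek and for which no high-affinity angiopoietin binding is established. Angiopoietin 1 (Angpt1) is the secreted ligand that activates Tek, and angiopoietin 2 (Angpt2) acts on Tek as an antagonist or a weak agonist depending on context. In the developing heart the ligand is known from the myocardium and the receptors from the endocardium beside it, and mouse embryos without Angpt1 or Tek die in mid-gestation with poorly developed endocardium and trabeculae.

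In GRCm38, Angpt1 (ENSMUSG00000022309) lies on chromosome 15 from 42424723 to 42676977 on the minus strand. Angpt2 (ENSMUSG00000031465) lies on chromosome 8 from 18690263 to 18741562 on the minus strand, where it overlaps Mcph1 on the plus strand. Tek (ENSMUSG00000006386) lies on chromosome 4 from 94739289 to 94874976 on the plus strand, and Tie1 (ENSMUSG00000033191) on the same chromosome from 118471191 to 118490061 on the minus strand. Angpt1 overlaps the plus-strand gene Gm17473. Whether strand was used in counting is not given in the sources used here, so a UMI from the overlapping stretches could have been counted for either gene. The files count Angpt2 and Mcph1 separately.

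The receptor promoters are shown because Tek and Tie1 share their place of highest expression, and endothelial genes are widely bound by ETS transcription factors, whose core is GGAA. The stretches below are the RefSeq sequence (GRCm38.p6) before each annotated gene start, 250 bases at chr4:94739039-94739288 on the plus strand for Tek and 38 bases at chr4:118490062-118490099 on the minus strand for Tie1. Capitals mark GGAA or its reverse complement TTCC, with 2 matches in each stretch.
Tek: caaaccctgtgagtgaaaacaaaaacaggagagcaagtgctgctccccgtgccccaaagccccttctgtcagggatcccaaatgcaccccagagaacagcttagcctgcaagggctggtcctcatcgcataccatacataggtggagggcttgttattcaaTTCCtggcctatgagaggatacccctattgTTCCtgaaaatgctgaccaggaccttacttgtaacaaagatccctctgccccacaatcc
Tie1: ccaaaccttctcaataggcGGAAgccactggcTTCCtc
Over the whole 300-base RefSeq windows, read on both strands with overlapping matches counted, the Tie1 window held 9 GGAA matches and the Tek window 2. Each window also covers bases within the annotated gene, which make up most of the Tie1 window. Only 2 of the 9 Tie1 matches lie in the 38 bases before the gene start. Of 32817 mouse promoter windows of this length, 96.0% held at least 1 GGAA, 1.58% held as many as Tie1 or more, and 84.6% as many as Tek or more. GATA, the core bound by GATA factors, occurred 2 times in the Tek window and 0 times in the Tie1 window, and 57.9% of all windows held at least 1. CANNTG, the E-box, occurred 2 times in Tek and 1 time in Tie1, against at least 1 in 72.3% of all windows. These are letter matches in short windows, not measured binding sites.

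The libraries held 8793 control and 11534 H2CKO cells after filtering, with medians of 16223 and 13430 UMIs (unique molecular identifiers, 1 per counted transcript molecule) and of 2.39% and 3.38% mitochondrial UMIs per cell. The libraries shared 28 barcodes among these cells. Clusters formed without the 4 genes gave 16 groups of cells, named by marker genes. Of these, 13 had at least 50 cells in each library and were compared by genotype. The atrial-like cells numbered 106 in the control and 6 in H2CKO, so they were not compared. A gene's level is its UMIs summed over a group of cells and scaled to that group's total (counts per 1e6 UMIs, CPM), with an exact 95% Poisson interval in parentheses. With 1 library per genotype no difference has a replicate check, no p-value is given, and intervals cover counting error only. In erythroid-like cells, which stand here for the level of free RNA, no member exceeded 0.84 CPM. Haemoglobin genes made up 66.0% of their UMIs in the control and 68.8% in H2CKO, which lowers the CPM of every other gene in them. A level slightly above theirs therefore need not exceed free RNA.

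Angpt1, the activating ligand, was a myocardial transcript. Cardiomyocyte-like cells held 86.8% of its UMIs in the control library and 93.6% in H2CKO, and were 32.9% and 36.2% of the kept cells. Its control level was 96.1 CPM (83.6 to 110) in 106 atrial-like cells, 63.5 CPM (61.1 to 66.0) in 1439 ventricular-like cells and 21.7 CPM (18.8 to 24.9) in 353 outflow-tract-like cells. The 3 intervals did not overlap, so the order of atrial, ventricular and outflow levels in this library exceeded counting error. In H2CKO the ventricular level was 37.2 CPM (35.7 to 38.7) in 3121 cells and the outflow level 10.3 CPM (8.29 to 12.7) in 484 cells, in the same order. The 6 atrial-like H2CKO cells held 4 Angpt1 UMIs, which give 37.1 CPM (10.1 to 94.96).

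Among the smaller cardiomyocyte groups, Angpt1 was low where Tbx3 was high. Tbx3 encodes a repressor known from the conduction system and the atrioventricular canal. The Tbx3-rich cardiomyocytes had 11.3 CPM of Angpt1 (7.07 to 17.1) in 94 control cells and 6.47 CPM (3.95 to 9.99) in 184 H2CKO cells, below the ventricular-like cells of the same library in both. Kcnk3-rich cardiomyocytes had 49.2 CPM in 44 control cells and 26.4 CPM in 147 H2CKO cells. These Kcnk3-rich cells were the deepest of all groups, at medians of 39758 and 28462 UMIs, and haemoglobin genes made up 18.4% and 24.4% of their UMIs; the part of mixed cells in their values was not tested.

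The share of ventricular-like cells with at least 1 Angpt1 UMI was 67.1% in the control, against 1.37% of erythroid-like cells, at medians of 25927 and 18359 UMIs. In H2CKO these shares were 42.7% and 0.56%, at medians of 17854 and 13223 UMIs. Cells with at least 5000 UMIs were also thinned to that depth, which left out 3 control and 44 H2CKO ventricular-like cells. Of the thinned ventricular-like cells, 23.9% in the control and 15.6% in H2CKO kept an Angpt1 UMI. The highest single cell held 17 Angpt1 UMIs, in the control.

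Outside the myocardium, Angpt1 was present in Sox9-rich mesenchymal cells, with 19.6 CPM (17.2 to 22.2) in control and 10.6 CPM (8.22 to 13.4) in H2CKO. These levels lay below those of ventricular-like cells, and their intervals overlapped those of outflow-tract-like cells in both libraries. Sox9 encodes a transcription factor of the endocardial cushions, which form the valves. In the Sox9-rich cells Hand2 was at 177 CPM in the control and 15.2 CPM in H2CKO. The unnamed Rgs5-rich cluster had more Angpt1 in the control, at 42.5 CPM (23.3 to 71.4) from 14 UMIs in 41 cells. In H2CKO it had 10.8 CPM (3.50 to 25.1) from 5 UMIs in 75 cells, and this interval overlapped the Sox9-rich one. Meox1-rich mesenchymal cells had 8.78 and 6.42 CPM of Angpt1, and Hic1-rich ones 4.87 and 1.68 CPM. Epicardial-like cells, the outer lining of the heart, had 2.91 and 4.37 CPM. The cells that carry the receptors had almost none, at 1.68 and 0.63 CPM in Klf2-rich and 1.51 and 1.27 CPM in Emcn-rich endothelial cells. The groups highest in Angpt1 were thus not those highest in Tek, while mesenchymal groups held some of both.

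White-blood-cell-like cells also held Angpt1, at 47.5 CPM (36.1 to 61.4) from 58 UMIs in 62 control cells and 19.1 CPM (12.4 to 28.2) from 25 UMIs in 80 H2CKO cells. Within these cells, split after their values were seen, the transcript was lower in macrophage-like profiles. Control cells with at least 2 of the macrophage markers C1qb, Csf1r and Cd68 had 8.30 CPM (2.70 to 19.4) in 29 cells, and the other 33 cells had 85.6 CPM (64.1 to 112). In H2CKO the values were 2.95 CPM (0.36 to 10.7) in 38 cells and 36.4 CPM (23.1 to 54.7) in 42 cells. The intervals did not overlap within either library. The same cells were also split by 5 platelet and megakaryocyte markers. Control cells with at least 2 of these platelet markers had 82.0 CPM (48.6 to 130) in 9 cells. Those with 1 platelet marker had 67.6 CPM (29.2 to 133) in 7 cells. Those with no platelet marker had 36.2 CPM (24.8 to 51.1) in 46 cells, which held 32 of the 58 UMIs. In H2CKO the values were 30.4 CPM (9.86 to 70.9) in 10 cells, 43.9 CPM (20.1 to 83.3) in 14 cells and 11.7 CPM (5.85 to 20.96) in 56 cells.

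**Figure D1:**
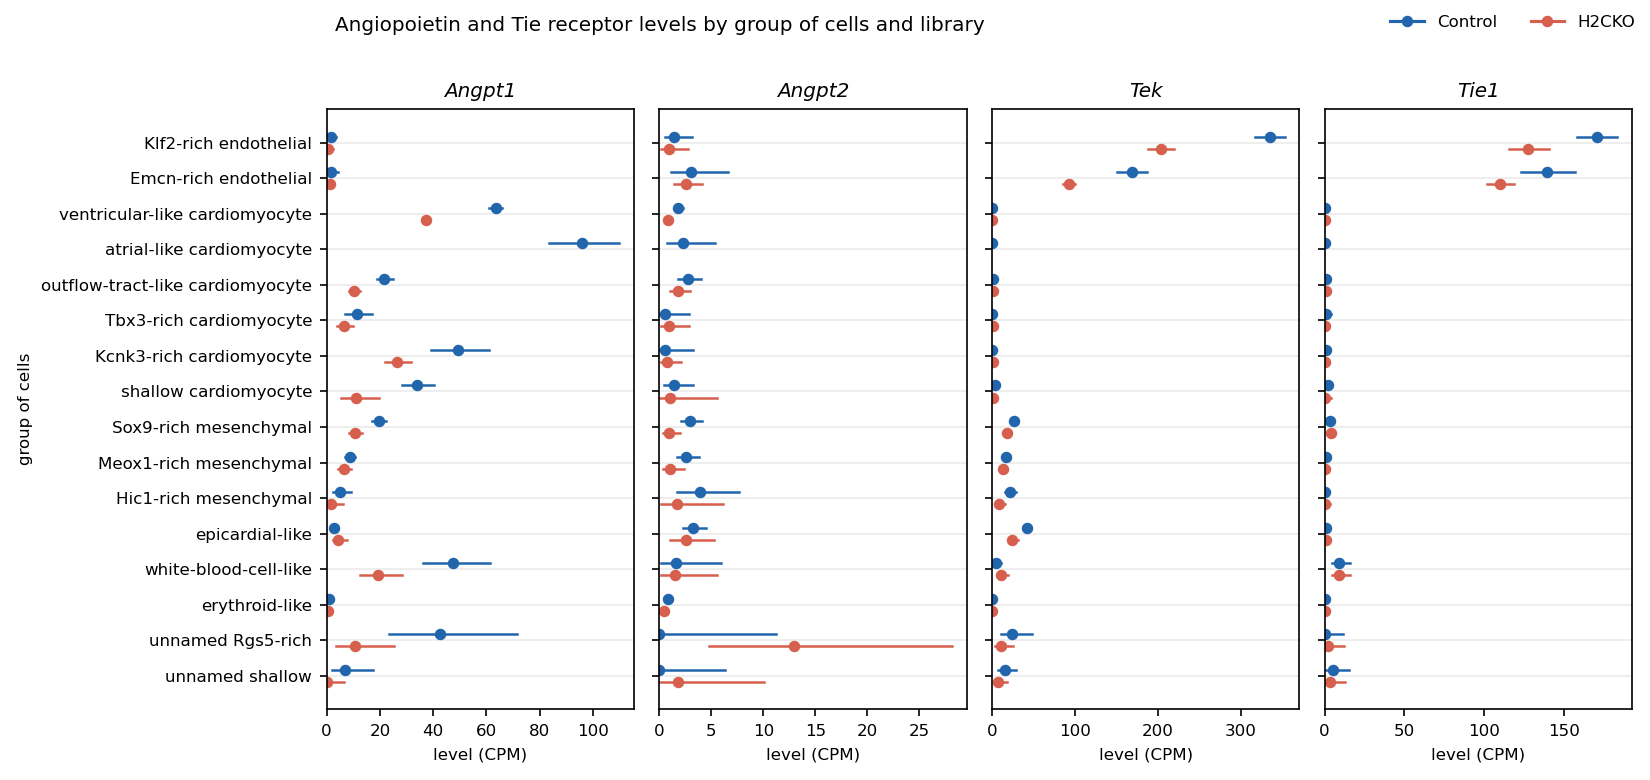
Levels of Angpt1, Angpt2, Tek and Tie1 (horizontal axes, CPM, each on its own linear scale) in each group of cells (vertical axis), with 1 point per library and lines for the exact 95% Poisson interval. Control is blue and H2CKO red, and a point with under 20 cells is not drawn. Angpt1 reaches 96.1 CPM in atrial-like control cells and Tek 335 CPM in Klf2-rich endothelial control cells, while Angpt2 stays at or below 12.9 CPM in every group.

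Angpt2 was scarce throughout. All kept cells together held 278 of its UMIs in the control and 154 in H2CKO, or 1.78 CPM (1.58 to 2.003) and 0.87 CPM (0.73 to 1.01). The highest level in a named group was 3.90 CPM (1.68 to 7.68), in 136 Hic1-rich control cells. Endothelial levels were 1.44 and 0.94 CPM in Klf2-rich cells and 3.03 CPM (1.11 to 6.59) and 2.54 CPM (1.45 to 4.12) in Emcn-rich cells, control first. In erythroid-like cells Angpt2 was at 0.84 CPM (0.61 to 1.14) and 0.44 CPM (0.30 to 0.63), values that are lowered by haemoglobin UMIs. The Emcn-rich H2CKO interval lay above that of erythroid-like cells in its library as counted, and the Klf2-rich intervals overlapped theirs. As counted, the epicardial-like intervals of both libraries and the Sox9-rich control interval also lay above those of erythroid-like cells. The Sox9-rich H2CKO interval overlapped theirs. An unnamed Rgs5-rich cluster with mesenchymal and smooth muscle markers gave the highest value, 12.9 CPM (4.74 to 28.1) from 6 UMIs in 5 of 75 H2CKO cells. Its 41 control cells held 0 Angpt2 UMIs, which allows up to 9.11 CPM. Because no group of at least 50 cells reached the 20 CPM and 20 UMIs set for a genotype comparison, no Angpt2 ratio is given. Mcph1, the overlapping gene, was at 10.98 to 23.2 CPM in both endothelial groups, above Angpt2 in each library.

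Tek, the angiopoietin receptor, was highest in endothelial cells, which formed 2 clusters. The Klf2-rich cluster is named for a transcription factor induced by blood flow and had 252 control and 264 H2CKO cells. The Emcn-rich cluster is named for endomucin, a surface sialomucin, and had 120 control and 487 H2CKO cells. All 12 endothelial markers were found in at least 10% of the cells of both clusters, and all 6 endocardial markers had UMIs in both. In Klf2-rich cells Tek was at 335 CPM (318 to 353) in control and 203 CPM (188 to 219) in H2CKO. In Emcn-rich cells it was at 168 CPM (151 to 188) and 92.7 CPM (85.3 to 101). The Klf2-rich level was the higher of the pair in each library, beyond counting error.

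Endothelial cells held 60.8% of all Tek UMIs in the control and 77.6% in H2CKO, and the rest was spread over cells that do not line vessels. These shares, and those of Tie1 below, depend on which cells were captured. Endothelial cells were 4.23% of kept cells in the control and 6.51% in H2CKO, and epicardial-like cells 7.92% and 1.93%. Epicardial-like cells had 41.6 CPM (38.0 to 45.6) in 696 control cells and 24.4 CPM (18.9 to 31.01) in 223 H2CKO cells. Sox9-rich mesenchymal cells had 26.8 CPM (24.0 to 29.9) and 18.7 CPM (15.5 to 22.3), Hic1-rich cells 21.9 and 8.42 CPM, and Meox1-rich cells 16.6 and 13.7 CPM. Each of these 4 groups had more Tek than erythroid-like cells, which were at 0.59 CPM in the control and 0.21 CPM in H2CKO. Cardiomyocytes had very little Tek. Ventricular-like cells had 0.52 CPM (0.33 to 0.79) in control and 0.54 CPM (0.37 to 0.74) in H2CKO. The H2CKO interval lay above that of erythroid-like cells (0.11 to 0.34), and the control interval overlapped theirs (0.40 to 0.84). Haemoglobin UMIs lower these erythroid-like values, which was not corrected for. Shallow cardiomyocytes had 3.83 CPM (2.09 to 6.42) from 14 UMIs in the control and 1 UMI in H2CKO, and 106 atrial-like control cells held 0 UMIs, which allows up to 1.37 CPM.

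The epicardial Tek signal was carried by many cells at low counts. In the control 43.5% of epicardial-like cells had at least 1 Tek UMI, with at most 8 in a cell, against 1.07% of erythroid-like cells. In H2CKO 24.7% had one, against 0.28%. After cells of at least 5000 UMIs were thinned to that depth, the epicardial-like shares were 20.6% in the control and 12.7% in H2CKO. This left out 7 control and 18 H2CKO epicardial-like cells. The same cells had little Tie1, with 13 Tie1 UMIs beside 472 Tek UMIs in the control and 3 beside 67 in H2CKO. They also had little of the other endothelial markers, with summed levels of the 12 markers of 78.6 CPM in the control and 141 CPM in H2CKO, against 4145 and 3737 CPM in Klf2-rich cells. Cdh5, VE-cadherin of endothelial junctions, was at 0.88 and 5.83 CPM in them.

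Tie1, the partner receptor, was more restricted to endothelium than Tek. Endothelial cells held 88.4% of its UMIs in the control and 93.0% in H2CKO. In Klf2-rich cells Tie1 was at 170 CPM (158 to 183) in control and 127 CPM (115 to 140) in H2CKO. In Emcn-rich cells it was at 139 CPM (123 to 157) and 110 CPM (102 to 119). Outside the endothelium Tie1 was at 9.01 and 9.17 CPM in white-blood-cell-like cells and at 3.62 and 3.68 CPM in Sox9-rich cells, and elsewhere among named groups at or below 1.91 CPM. Meox1-rich H2CKO cells held 0 Tie1 UMIs in 427 cells, which allows up to 0.62 CPM, beside 66 Tek UMIs.

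The receptors differed in their balance between groups of cells. Per Tie1 UMI there were 1.97 Tek UMIs in Klf2-rich and 1.21 in Emcn-rich control cells, and 1.596 and 0.84 in H2CKO. Tek made up 66.3% (exact binomial interval 64.2 to 68.3) of the UMIs of both receptors in Klf2-rich control cells and 61.5% (58.5 to 64.4) in H2CKO. In the Sox9-rich mesenchyme the share was 88.1% (84.4 to 91.2) and 83.6% (76.5 to 89.2), and in epicardial-like cells 97.3% (95.5 to 98.6) and 95.7% (88.0 to 99.1). These shares compare the same pair of genes across cells, and a 3′ count does not give the level of one receptor relative to the other. Both receptors were found together in 71.8% of Klf2-rich and 65.8% of Emcn-rich control cells, and in 55.7% and 43.9% of the H2CKO cells, whose depth was lower.

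**Figure D2:**
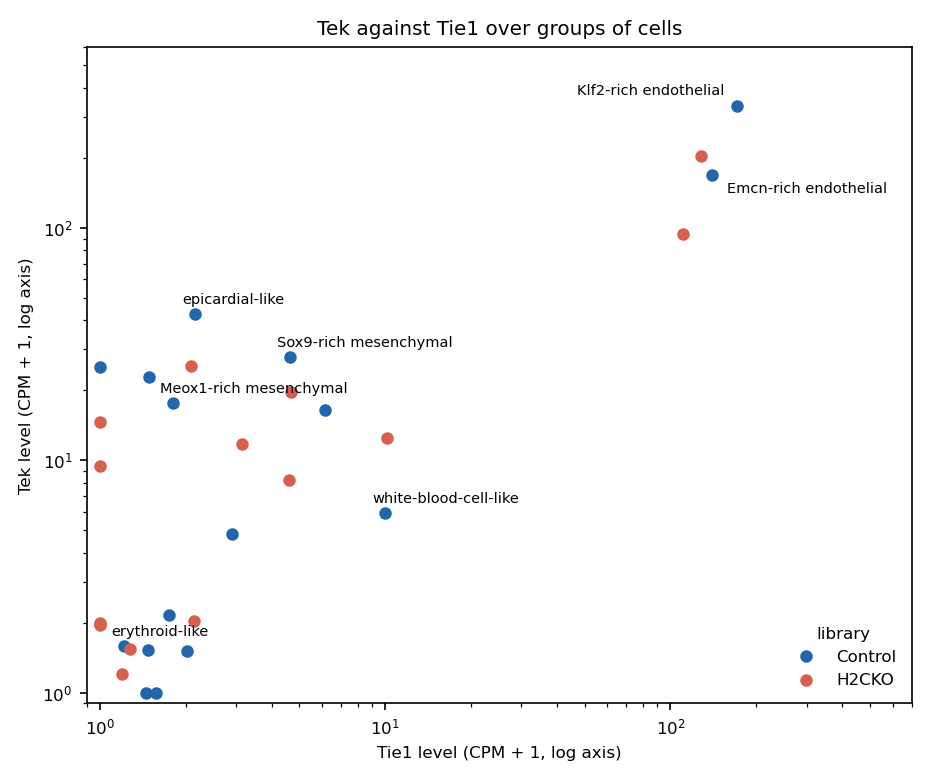
Tek against Tie1 level (both in CPM plus 1, on log axes), with 1 point per group of cells and library and the labels set at control points. The endothelial points stand at the upper right, and the epicardial-like points, at 41.6 and 24.4 CPM of Tek with 1.15 and 1.09 CPM of Tie1, stand high on the Tek axis only.

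Genotype ratios of the 4 genes are read against a trend that runs through the libraries. In most groups, genes with a longer span from start to end had lower H2CKO over Control ratios, with a Spearman rho across all tested genes of -0.48 in Klf2-rich cells, -0.45 in Emcn-rich cells and -0.50 in ventricular-like cells. The members differ in span, with 252 kb for Angpt1, 136 kb for Tek, 51.3 kb for Angpt2 and 18.9 kb for Tie1. Ratios of the members are therefore given on the log2 scale, with 5 CPM added to both libraries and H2CKO set over Control. They are read beside the median of all tested genes or that of genes of like span. Genes of like span are those in the same of 10 equal-sized groups of tested genes ranked by span. Angpt1 and Tek fell in the same such group throughout. A gene was tested with at least 20 CPM and 20 UMIs in the higher library, and was called past 2-fold where its log2 ratio reached 1 or -1.

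Tek was lower in H2CKO in both endothelial clusters, and neither ratio was past 2-fold. In Klf2-rich cells its log2 ratio was -0.71, with 0.61 times the control CPM (0.55 to 0.67), where 3.57% of 6602 tested genes were past 2-fold lower. The median was -0.24 over all genes and -0.52 over genes of like span, and 29.8% of the latter had a ratio below that of Tek. In Emcn-rich cells the Tek log2 ratio was -0.83, with 0.55 times the control CPM (0.48 to 0.63), where 8.66% of 6342 genes were past 2-fold lower. The like-span median there was -0.61, with 31.7% of such genes below Tek. Over all genes, 41 were past 2-fold higher and 236 lower in Klf2-rich cells, and 86 and 82 once centred on the median gene. In Emcn-rich cells these counts were 86 and 549, and 175 and 230 once centred. The Tek intervals exclude equal CPM, and the ratios lay within the range common for genes of this span.

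Tie1, the short gene, differed less. Its log2 ratio was -0.41 in Klf2-rich cells, with 0.75 times the control CPM (0.66 to 0.85), and -0.33 in Emcn-rich cells, with 0.79 times (0.69 to 0.91). Like-span medians were -0.19 and -0.22. After these medians were subtracted, Tek and Tie1 stood at -0.19 and -0.22 in Klf2-rich cells and at -0.22 and -0.11 in Emcn-rich cells, all slightly below genes of like span.

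Other features of the endothelial clusters also moved with genotype. Hand2 itself went from 258 to 6.90 CPM in Klf2-rich cells and from 174 to 13.02 CPM in Emcn-rich cells, and GFP from 17.5 to 1632 CPM and from 13.1 to 960 CPM. The summed level of 9 mesenchymal markers, all with UMIs in both libraries, was 2704 CPM in control and 899 CPM in H2CKO Klf2-rich cells. The 6 endocardial markers, a list that includes Hand2 itself, summed there to 1075 and 463 CPM. The 8 vascular markers, with Esm1 at 0 in both libraries, summed to 522 and 367 CPM. In Emcn-rich cells the mesenchymal sum was 860 and 232 CPM. The 6 endocardial markers, again with Hand2 among them, summed to 1524 and 378 CPM, and the 8 vascular markers to 270 and 594 CPM. Median depth was 12096.5 and 9026.5 UMIs in Klf2-rich cells and 13659.5 and 10729 UMIs in Emcn-rich cells, and haemoglobin genes made up 1.38% and 5.23%, and 2.27% and 4.20%, of UMIs. The part of these differences in the Tek and Tie1 ratios was not tested.

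With both endothelial clusters pooled, Tek was at 281 CPM in the control and 130 CPM in H2CKO, a log2 ratio of -1.09 that was past 2-fold, as were 7.75% of 6544 genes in the lower direction, against a like-span median of -0.62. Different clusters held most of the pool, since 252 of 372 control cells were Klf2-rich and 487 of 751 H2CKO cells were Emcn-rich, the cluster with less Tek. Pooled Tie1 was at 160 and 116 CPM, with a log2 ratio of -0.45.

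Within the Emcn-rich cluster, split after the data were seen, Tek was compared among cells with the same of 2 subtype markers. Npr3 encodes a natriuretic peptide receptor of the endocardium, and Cldn5 a tight junction claudin of vessels. Cells with an Npr3 UMI and no Cldn5 UMI had 183 CPM of Tek (162 to 206) in 90 control cells. In 112 such H2CKO cells Tek was at 107 CPM (91.0 to 126), and these intervals did not overlap. Median depth in them was 14652 UMIs in control and 10895 in H2CKO, and no like-span median is given for this split. Cells with Cldn5 and no Npr3 had 75.1 CPM (63.1 to 88.8) in 158 H2CKO cells and 29.0 CPM (5.98 to 84.8) from 3 UMIs in 7 control cells. Cells with both markers had 154 CPM (110 to 209) in 10 control and 99.2 CPM (86.9 to 113) in 135 H2CKO cells. Those with neither had 124 CPM (64.3 to 217) in 13 control and 87.0 CPM (66.4 to 112) in 82 H2CKO cells. In each of these 3 kinds of cells the intervals of the libraries overlapped. Among H2CKO cells the interval of Npr3-only cells lay above that of Cldn5-only cells. Tie1 was at 138 CPM (120 to 159) and 117 CPM (100.01 to 136) in Npr3-only cells, and these intervals overlapped.

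The reporter splits H2CKO cells into those with and without a GFP UMI. In Klf2-rich cells Tek was at 209 CPM (193 to 227) in 232 cells with GFP and 126 CPM (85.2 to 180) in 32 cells without, and Tie1 at 128 CPM (115 to 141) and 122 CPM (81.8 to 175). In Emcn-rich cells Tek was at 91.4 CPM (82.4 to 101) in 296 cells with GFP and 95.3 CPM (82.7 to 109) in 191 cells without, and Tie1 at 112 CPM (102 to 123) and 106 CPM (92.7 to 121). The Tek intervals of cells with and without GFP overlapped in Emcn-rich cells, and in Klf2-rich cells the interval of cells with GFP lay higher. Cells without a GFP UMI were shallower, at medians of 6629 against 9868.5 UMIs in Klf2-rich and 9796 against 11232 UMIs in Emcn-rich cells, and a cell can carry GFP without a counted UMI.

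Mesenchymal cells with GFP had about as much Tek as those without in the Sox9-rich group, at 19.4 CPM (15.1 to 24.6) and 17.8 CPM (13.3 to 23.3). In Meox1-rich cells the values were 24.3 CPM (14.4 to 38.4) in 57 cells with GFP and 11.7 CPM (8.65 to 15.6) in 370 cells without, and in epicardial-like cells 31.9 CPM (19.2 to 49.8) and 22.3 CPM (16.5 to 29.6). In these 3 groups the intervals overlapped. At least 5 GFP UMIs were found in 306 of the 347 Sox9-rich cells with GFP. This held for 9 of the 57 Meox1-rich and 7 of the 32 epicardial-like ones. GFP UMIs were also counted in the control library, which has no Cre. Median depth with and without GFP was 11521 and 9867 UMIs in Meox1-rich cells, and 16532.5 and 9423 UMIs in epicardial-like cells.

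**Figure D3:**
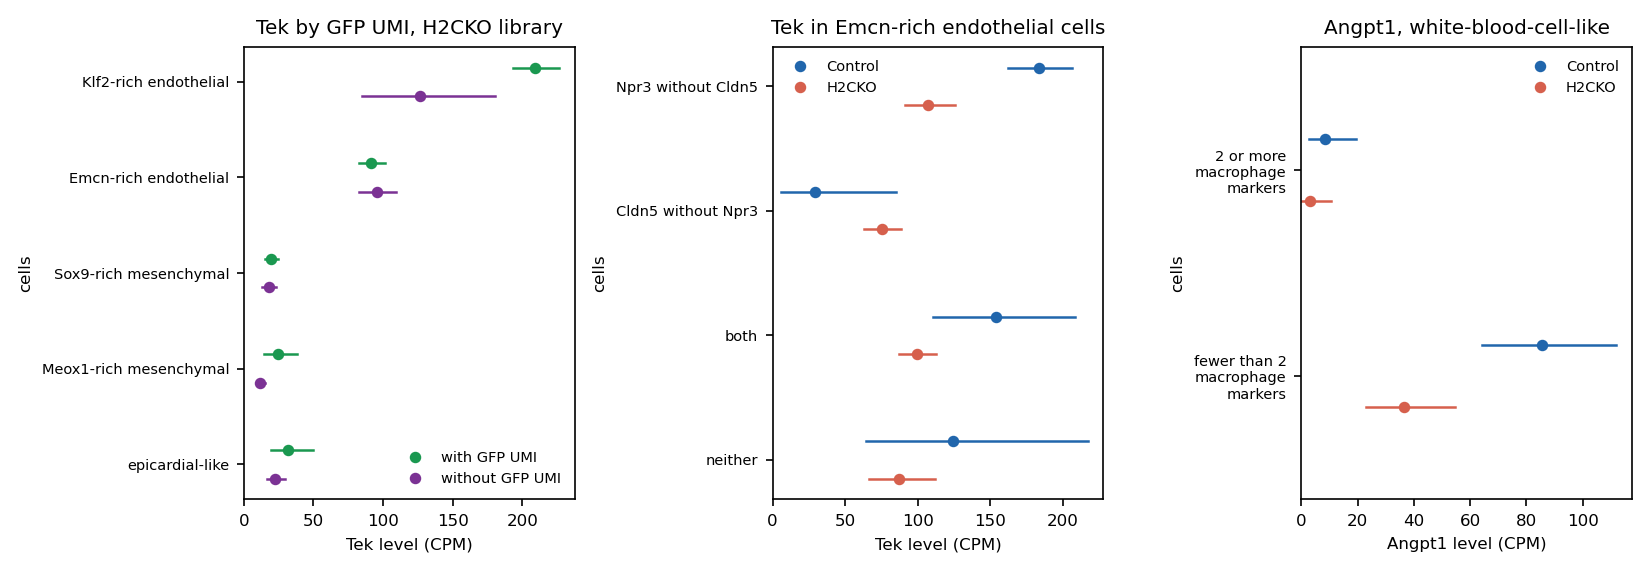
Levels (CPM, linear axes from 0) within groups of cells, with lines for exact 95% Poisson intervals. The left panel gives Tek in H2CKO cells with and without a GFP UMI, the middle panel Tek in Emcn-rich endothelial cells by UMIs of Npr3 and Cldn5, and the right panel Angpt1 in white-blood-cell-like cells by macrophage markers. Npr3-only cells have 183 CPM of Tek in the control and 107 CPM in H2CKO, and cells with fewer than 2 macrophage markers hold most of the Angpt1.

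Angpt1 was lower in H2CKO in the cardiomyocytes. By the reporter, ventricular-like cells are not a site of Nfatc1Cre activity, with GFP at 9.31 CPM in control and 8.85 CPM in H2CKO. GFP levels of the other cardiomyocyte groups are not given here. In ventricular-like cells the log2 ratio of Angpt1 was -0.70, with 0.59 times the control CPM (0.55 to 0.62). It was not past 2-fold, as were 0.648% of 5558 tested genes in the lower direction. The median was -0.17 over all genes and -0.37 over genes of like span, and 9.53% of the latter lay below Angpt1. In outflow-tract-like cells the log2 ratio was -0.80, with 0.48 times the control CPM (0.37 to 0.61), against a like-span median of -0.53. Ventricular-like cells had a median of 4.69% mitochondrial UMIs in the control and 7.15% in H2CKO, and their depths differed as given above. The part of these in the ratio was not tested. Under a stricter cell filter (1500 genes or more, mitochondrial UMIs of 5% or less) the log2 ratio was -1.09. This filter left 870 of 1439 control and 254 of 3121 H2CKO ventricular-like cells. Its 5% limit lies above the control median and below the H2CKO median, so it kept unlike parts of the libraries. No share of all genes and no like-span median is given for this filter.

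Angpt1 was past 2-fold lower in 2 other groups. In shallow cardiomyocytes it was at 33.9 CPM (28.2 to 40.4) in 856 control cells and 10.98 CPM (5.48 to 19.7) in 238 H2CKO cells, a log2 ratio of -1.28, where 5.07% of genes were past 2-fold lower. These cells had medians of 1783 and 1960 UMIs, and differed between the libraries in median mitochondrial share (0.57% and 4.38%) and in haemoglobin (5.92% and 23.8% of UMIs). In white-blood-cell-like cells the log2 ratio was -1.12, with 0.40 times the control CPM (0.24 to 0.65), where 5.98% of genes were past 2-fold lower. Platelet and megakaryocyte markers summed to 2395 CPM in the control and 810 CPM in H2CKO in these cells, and their part was not tested. In both the ratio lay below the like-span median, which was -0.27 and -0.55.

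Outside the endothelium, Tek was past 2-fold lower in the Hic1-rich mesenchyme, at a log2 ratio of -1.004 from 45 control and 10 H2CKO UMIs, where 7.2% of genes were past 2-fold lower and the like-span median was -0.70. In epicardial-like cells its log2 ratio was -0.66, with 0.59 times the control CPM (0.45 to 0.76), against a like-span median of -0.60. Cardiomyocyte markers in the epicardial-like cells summed to 1481 CPM in the control and 4932 CPM in H2CKO, against 42328 and 38541 CPM in ventricular-like cells, and their part in the ratio was not tested. In Sox9-rich cells the log2 ratio was -0.43, with 0.70 times the control CPM (0.56 to 0.86), which is above the like-span median of -0.67. These mesenchymal cells had 177 and 15.2 CPM of Hand2 and 17.8 and 1340 CPM of GFP, control first.

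**Figure D4:**
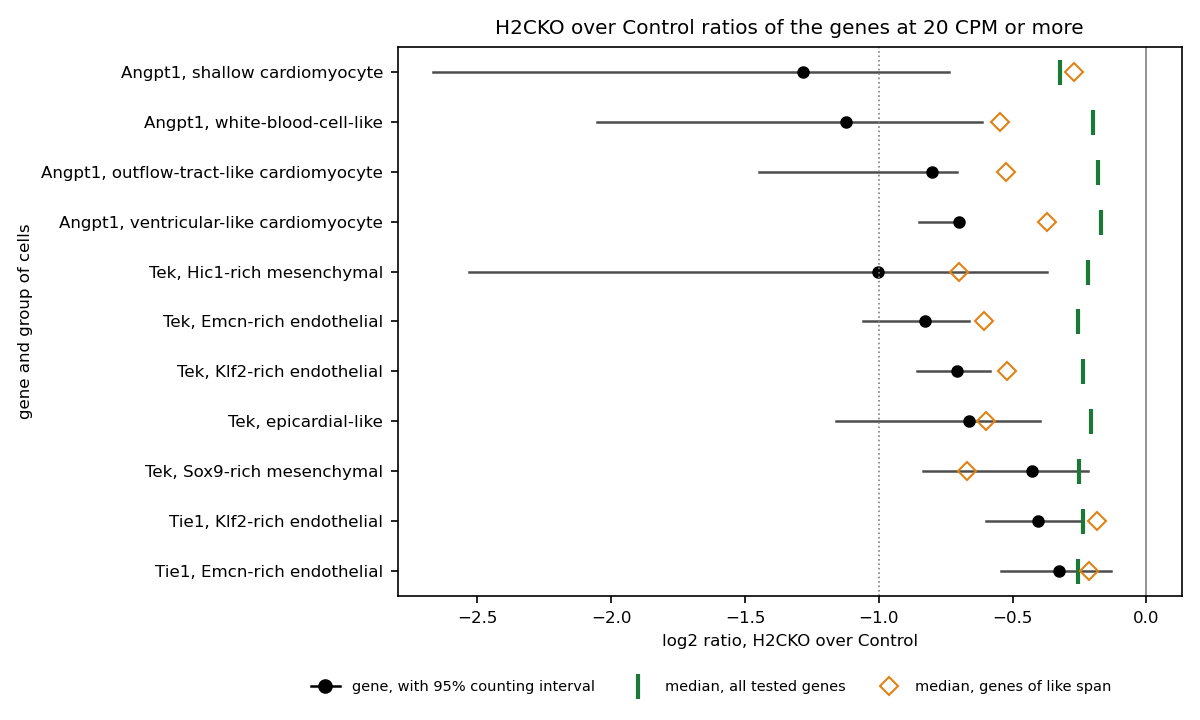
H2CKO over Control log2 ratios of CPM plus 5 (points) for each of the genes and groups of cells at 20 CPM and 20 UMIs or more, with lines for the exact 95% interval of the plain ratio of CPM. Green ticks give the median of all tested genes and orange diamonds the median of genes of like span, and the dotted line marks a 2-fold lower level. Every point is below 0, from -0.33 for Tie1 in Emcn-rich cells to -1.28 for Angpt1 in shallow cardiomyocytes, and Tek points lie nearer to the diamonds than to the ticks in all groups but the Sox9-rich.

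The wider Tek pathway was followed in a list of 24 genes for other ligands, modifiers, adaptors and effectors. For this list and those below, ratios are set beside all tested genes and not beside genes of like span. The part of gene span in them was not tested. In Klf2-rich cells 15 could be tested, of which 0 were past 2-fold higher (0.621% of all tested genes) and 1 lower (3.57%), with a median log2 ratio of -0.44 against -0.24 over all genes. The lower one was Itgb1, the integrin beta 1 subunit that can bind angiopoietins, at 754 CPM in the control and 328 CPM in H2CKO (log2 ratio -1.19). In Emcn-rich cells 14 could be tested, with 0 higher (1.36% of all tested genes) and 1 lower (8.66%) and a median of -0.39 against -0.26. That one was Shc1, an adaptor of receptor tyrosine kinases, at 60.0 and 27.2 CPM (log2 ratio -1.02).

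Ptprb encodes VE-PTP, the endothelial phosphatase that dephosphorylates Tek. It was at 659 CPM in Klf2-rich and 50.4 CPM in Emcn-rich control cells, and at 474 and 42.1 CPM in H2CKO, with log2 ratios of -0.47 and -0.24. It is among the 10 genes that define the Klf2-rich cluster, so the gap between clusters is a description. Sox9-rich mesenchyme also held Ptprb, at 103 and 86.7 CPM. Foxo1, a transcription factor inhibited downstream of Tek through Akt, had log2 ratios of -0.46 and -0.39 in Klf2-rich and Emcn-rich cells. Klf2 had log2 ratios of 0.13 and -0.39.

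Svep1 encodes a secreted matrix protein that binds Tie1. It was at 47.0 CPM (43.1 to 51.2) in epicardial-like control cells and 24.4 CPM (18.9 to 31.01) in H2CKO, and at 32.1 and 15.2 CPM in Hic1-rich cells. In both endothelial clusters it was at or below 2.16 CPM. The groups with the most Svep1 transcript thus held little Tie1. Angpt4, the remaining angiopoietin gene, held 0 UMIs in both endothelial clusters and reached 2.55 CPM (7 UMIs) in epicardial-like H2CKO cells.

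Transcription factors of endothelium were measured in a list of 14, all of which could be tested. In Klf2-rich cells 0 were past 2-fold in either direction, against 0.621% of all tested genes higher and 3.57% lower, with a median log2 ratio of -0.25 against -0.24 over all genes. In Emcn-rich cells 2 were higher and 2 lower, against 1.36% and 8.66% of all tested genes, with a median of -0.15 against -0.26. The higher ones were the SoxF genes Sox17, known from arterial endothelium, at 18.2 and 94.0 CPM (log2 ratio 2.10), and Sox18, at 45.4 and 107 CPM (1.16). The lower ones were the forkhead genes Foxc1, at 108 and 28.1 CPM (-1.77), and Foxc2, at 117 and 49.2 CPM (-1.16). Sox17 belongs to the vascular marker list used to name cells.

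Of 8 other receptor tyrosine kinases of endothelium, 5 could be tested in Klf2-rich cells, with 0 past 2-fold (0.621% of all tested genes higher, 3.57% lower) and a median log2 ratio of -0.52 against -0.24 over all genes. In Emcn-rich cells 6 could be tested, with 0 higher and 1 lower (1.36% and 8.66% of all tested genes) and a median of -0.29 against -0.26. The lower one was Pdgfrb, the PDGF receptor of mural and mesenchymal cells, at 55.0 and 1.43 CPM (-3.22), which moved with the mesenchymal markers given above.

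Across 29 points, each a group of cells in a library, the profile of log2 CPM plus 5 was compared between each member and 9135 genes. Tie1 was most like Cdh5 (Pearson r = 0.98), the protein kinase C gene Prkch (0.98) and the ETS factor gene Erg (0.98). Tek was most like Ehd2, a gene of caveolae (0.95), Dapk1 (0.94) and the junction gene Jcad (0.94). Angpt1 was most like Hibch, a valine catabolism enzyme (0.81), the histone deacetylase gene Hdac9 (0.81) and the troponin gene Tnni2 (0.79). Angpt2 was most like Erp27 (0.80), Pnoc (0.76) and Pcdh11x (0.76), all highest in the Rgs5-rich H2CKO cells that hold 6 Angpt2 UMIs. Between the members r was 0.85 for Tek and Tie1, -0.52 for Angpt1 and Tek, and -0.37 for Angpt1 and Tie1. The points share 2 libraries and their depth, so these values are descriptions.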

How the data were processed

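Raw UMI counts, 1 matrix for each library, were deposited by the authors, with no normalisation. For a subset of the cells the authors deposited an embedding, a score per axis, used only to mark that subset. The submitters' processing notes list Cell Ranger 5.0.1, Seurat 4 and GRCm38.p6. Ensembl IDs gave a symbol for 22285 of the 22401 features, 2 of which were the reporters. The members, gene lists and comparisons were chosen with earlier results of these data known.

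Cells were kept from 500 genes up and to 10% mitochondrial UMIs. Scrublet (scanpy 1.11.5) left out 10.6% of the remaining control cells by its automatic threshold. In H2CKO that threshold marked 0 cells, so the highest 5% of scores were left out. Counts scaled to 10000 per cell gave 2000 variable genes, without the members, Hand2, the reporters, haemoglobin, mitochondrial and sex-linked genes. These were scaled within each library and reduced to 30 components, with 15 neighbours from each library. Leiden clustering (leidenalg 0.10.2, resolution 1) gave 21 clusters, named from 17 marker lists that held no member; 2 stayed unnamed. Names such as Klf2-rich, which separate clusters of a class, were given after seeing their leading genes, and another study's names for these cells may differ.

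UMIs were summed per group of cells and library. Intervals at 95% are exact conditional ones for ratios, exact Poisson ones for levels and, for shares, Clopper-Pearson ones (scipy 1.17.1). Where a group held 0 UMIs, the limit is 3 UMIs over its total. Gene spans and positions came from GENCODE vM21 (GRCm38), promoters from RefSeq. Named are the members, list genes past 2-fold in endothelial cells, Ptprb, Foxo1, Svep1 and Klf2, and the 3 genes most like each member. The ratio step was tested on simulated counts. Alternatives covered cell filters, doublets, thinning, clustering, pseudocount and scaling.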

Additional observations from a re-analysis of the deposited data

How the results depend on the processing

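Of 130 recomputed values of 10 genotype ratios, 2 changed sign and 28 others moved outside the counting interval of the first value. Of 180 recomputed levels, 22 moved. Both sign changes were in Sox9-rich cells after subtracting the median of genes of like span, at 0.24 for Tek and 0.012 for Angpt1, whose log2 ratio there was -0.66 as computed first and which is not compared in the report because it missed 20 CPM. That subtraction gave -0.19 and -0.22 for Tek and -0.22 and -0.11 for Tie1 in Klf2-rich and Emcn-rich cells, and -0.33 for Angpt1 in ventricular-like cells. Centred on the median gene the same 5 values were -0.47, -0.57, -0.17, -0.070 and -0.53. Thinned to 5000 UMIs, the log2 ratio in Klf2-rich cells was -0.93 for Tek and -0.69 for Tie1, and that of Angpt1 in ventricular-like cells -0.67.

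Angpt1 in ventricular-like cells was at -1.09 under the stricter cell filter (1500 genes, 5% mitochondrial UMIs), -0.61 with only the cells of the deposited embedding, -0.51 with no doublets left out, -0.64 with the highest 5% of doublet scores left out in both libraries (chosen after seeing the data), and -0.55 with a pseudocount of 20 CPM. The cause was not tested.

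With a minimum of 100 CPM, 19 genes were past 2-fold higher and 73 lower in Klf2-rich cells, 34 and 148 in Emcn-rich cells, and 11 and 16 in ventricular-like cells. Centred on the median gene, these counts were 86 and 82, 175 and 230, and 30 and 13, against 41 and 236, 86 and 549, and 18 and 36 as reported. No paired analysis was possible because each genotype has 1 library. Depth limits Angpt2 most, with 278 and 154 UMIs in all.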
